A study of Sus scrofa with 9 samples.

Results

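Innate sensing and interferon response genes were read in whole testis of boars, on 9 single-colour expression arrays of a custom porcine design. A gene was taken as a member when a sense probe carried the symbol of a Toll-like receptor, an NLR or NOD protein, DDX58 or IFIH1, MYD88, a TRAF, an IRF, a STAT, an NF-kappaB or inhibitor protein, a classical interferon-induced gene (MX, OAS, IFIT, IFITM, IFI, ISG, GBP, RSAD2) or a SOCS protein. The symbols found 136 of the 60889 probes and 73 of the 49437 distinct gene names on the array, each read from the probe with the highest mean in the deposited value table, or on the scanner signals where that table held none. No probe carried RSAD2, IRF9, IFI6 or SOCS1. The rule uses symbols and no measured difference, but it was set with earlier results of these data known.

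The arrays fell into 3 groups of 3. The control arrays came from testis of fertile boars with a normal karyotype (2n=38,XY) and normal semen. The t(1;14) arrays came from 1 Landrace × Duroc boar that carried a balanced reciprocal translocation between chromosomes 1 and 14 and was oligo-astheno-teratospermic, with few, poorly moving and malformed spermatozoa. The 3 t(1;14) extractions share that animal, so its karyotype and its other traits cannot be told apart. The oligospermic arrays came from 3 biopsies described as oligospermic with a normal karyotype. The methods name 3 control boars and the study's text speaks elsewhere of a pool of them. Which animal each control or oligospermic array holds, and whether RNA was pooled, is not given in the sources used here, so the p-values measure the spread between arrays and not between animals. Ages, and the breed of the other groups, are likewise not given in the sources used here.

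Vertebrate cells detect microbial nucleic acids and cell wall parts with Toll-like receptors at membranes and with RIG-I-like and NOD-like receptors in the cytosol. MYD88 and TRAF adaptors pass the signal on to IRF and NF-kappaB transcription factors, which switch on interferon and cytokine genes. Secreted interferon then acts through JAK kinases and STAT proteins to induce effectors such as MX1 and the OAS enzymes, and SOCS proteins damp the cascade. In the testis, Sertoli cells, Leydig cells and macrophages carry many of these sensors, and several pathway genes, STAT4 among them, are also transcribed in germ cells.

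Probes of several members that fell, and of 1 that rose, are shown so that each value can be tied to the piece of transcript it read. The main OAS1 probe was designed on another transcript record and is not printed. Each is 60 bases long, written 5′ to 3′ as on the array design. The STAT4 probes start at bases 1985 and 392 of its transcript and so read it at separate places.
STAT4, late probe: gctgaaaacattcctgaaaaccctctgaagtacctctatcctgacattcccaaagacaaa
STAT4, early probe: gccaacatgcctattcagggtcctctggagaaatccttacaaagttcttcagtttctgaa
ISG20L2: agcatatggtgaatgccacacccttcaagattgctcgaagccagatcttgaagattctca
SOCS6: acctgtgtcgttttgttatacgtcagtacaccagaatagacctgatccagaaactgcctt
OAS1, from base 871: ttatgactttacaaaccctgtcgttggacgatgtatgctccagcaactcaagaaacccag
OAS1, from base 676: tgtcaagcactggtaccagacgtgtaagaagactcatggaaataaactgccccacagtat
NFKBIA: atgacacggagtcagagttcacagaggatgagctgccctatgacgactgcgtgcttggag

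The TLR3 probes are shown because they are not separate readings. They start at bases 2882 and 2870 of the transcript and share 48 bases, in capitals here.
TLR3, first probe: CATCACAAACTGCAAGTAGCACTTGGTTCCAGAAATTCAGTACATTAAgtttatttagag
TLR3, second probe: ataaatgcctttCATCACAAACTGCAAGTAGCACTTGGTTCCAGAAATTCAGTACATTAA

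Values are log2 of the scanner's processed signal after quantile normalization over the 9 arrays. A gene is said to have risen or fallen where limma's Benjamini-Hochberg adjusted p over all 41105 tested probes was at most 0.01, and is called differential where its log2 fold change was also at least 2 in size. Between 37087 and 40632 probes were well above background on an array, with ranges that overlapped between the groups. The germ cell gene PRM1 averaged 15.75 to 15.79 and the Leydig cell gene INSL3 15.58 to 16.10 in the 3 groups, far above background. PRM1 was saturated on all 9 arrays and INSL3 on 3, so these levels show that the tissue holds both cell types and not how the groups compare. Of the 73 members, 56 passed the filter and were tested, and 45 were above background on all 9 arrays. The 17 members not tested included 9 that were never above background on the probe used, namely NOD2, NLRP5, TLR5, TLR8, TLR10, IFI44, ISG20, NFKBID and TRAF3IP1. Sensors were the thinnest class, since 9 of the 18 were not tested, TLR4 and TLR9 among them.

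Among the questions of the study was how the translocation changed expression in the testis. In the t(1;14) testis 11 members rose and 8 fell against control. Those are 19.6% and 14.3% of the 56 tested, beside 20.0% and 18.5% of all tested probes, so the shares for the members lay near those of the array as a whole. The 3 differential members, OAS1, STAT4 and ISG20L2, were all lower, where 4.41% of all probes were differential and lower and 1.41% differential and higher. The members' median log2 fold change was 0.31, against 0.135 over all probes, and 0.08 against 0.06 with normexp background correction. The t(1;14) arrays lay wholly above the control arrays for 18 of the 56 members and wholly below them for 12, beside 35.4% and 26.2% of all probes.

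**Figure D1:**
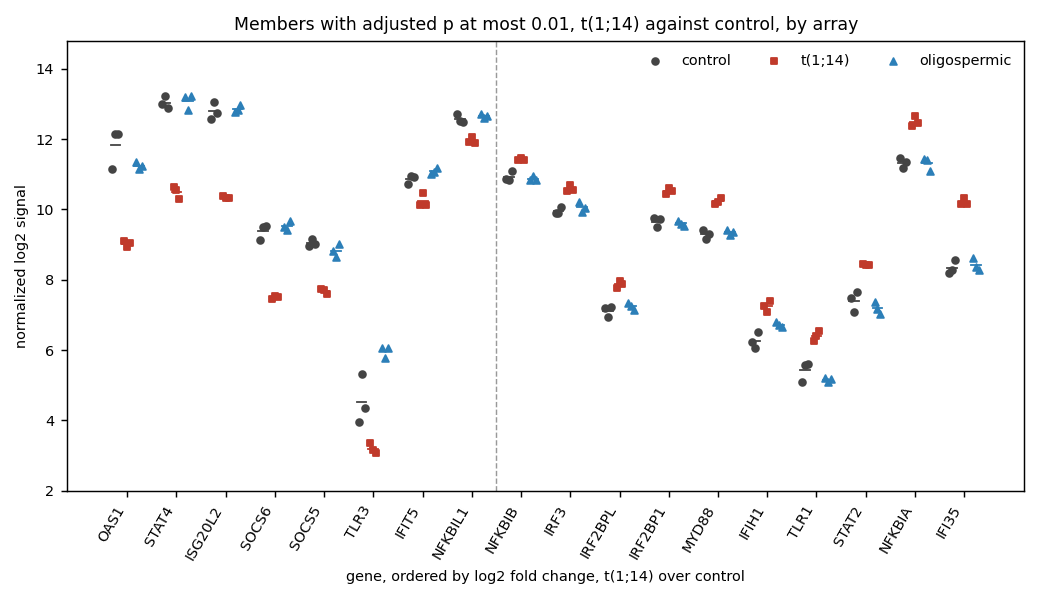
Normalized log2 signal (vertical axis) on each of the 9 arrays for 18 of the 19 members called in t(1;14) against control, ordered along the horizontal axis by log2 fold change; each point is 1 array and the short bar is the mean of its group. The 8 genes left of the dashed line fell and the 10 right of it rose, and the oligospermic arrays lie beside the control arrays for most of them but above both other groups for TLR3.

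Other cell types moved with these genes and are given once here. In this bulk tissue, fewer cells of a type and less RNA per cell cannot be told apart. Over all tested probes 20.0% rose and 18.5% fell in t(1;14), beside which the marker counts stand. Of 6 Leydig cell markers with a tested probe, 5 rose in t(1;14). Their summed signal was 122300 to 131100 against 60560 to 63900 in control, with INSL3, saturated on 3 arrays, the brightest of them. Of 7 germ cell markers, 4 fell and 1 rose, and their sum was 141200 to 145200 against 189100 to 221900, with PRM1 saturated on 9 arrays, PRM2 on 7 and TNP2 on 4. Of 9 tested leukocyte markers, CD14 rose and C1QC fell, with a median log2 change of 0.50. In t(1;14), 35.4% of all probes lay wholly above control, and 4 of these 9 markers did, AIF1, CD14, FCER1G and TYROBP. Wholly below lay 26.2% of all probes and 2 of the 9 markers, C1QC and LYZ. The summed signal of all 16 with a probe was 831 to 905 in t(1;14) and 832 to 1196 in control, C1QC with its fall of 1.95 on the log2 scale being the brightest of them in control. The lymphocyte markers CD2, CD3D, CD3E, CD4, CD8A, CD79A and MS4A1 were above background on no array. Of 7 peritubular and vascular markers 2 rose, and of 8 Sertoli cell markers 1 rose and 1 fell. The oligospermic sums were 48010 to 64180 for Leydig cells and 184700 to 211600 for germ cells, with the same saturated probes. Of the 6 Leydig markers, 2 lay wholly above control there and 1 wholly below, and none passed. Over all probes 7.87% and 7.66% did not overlap in these directions. The part of these cell types in the changes below was not tested.

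Among the 9 tested sensors, IFIH1 and TLR1 rose and TLR3 fell in t(1;14), so 22.2% rose and 11.1% fell beside 20.0% and 18.5% of all probes. IFIH1, the MDA5 helicase that binds long double-stranded RNA, read 6.24, 6.05 and 6.51 on the control arrays and 7.26, 7.07 and 7.39 on the t(1;14) arrays, without overlap. Its fold change was 0.97 ± 0.14 (SE, log2; adjusted p = 0.000665), and the oligospermic arrays, at 6.65 to 6.79, lay between. A dimmer IFIH1 probe gave 0.57 ± 0.20 and did not pass (adjusted p = 0.0394). TLR1, which pairs with TLR2 to bind bacterial lipopeptides, read 5.09, 5.58 and 5.59 in control and 6.27, 6.41 and 6.55 in t(1;14), a log2 change of 0.99 ± 0.15 (adjusted p = 0.000934). Its partner TLR2 did not pass, with 0.25 ± 0.34 (adjusted p = 0.552). DDX58, the RIG-I helicase, stood at 4.99 to 5.26 in control and 4.95 to 5.50 in t(1;14).

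TLR3, the endosomal receptor for double-stranded RNA, separated all 3 groups. The first TLR3 probe read 3.95, 5.31 and 4.34 in control, 3.35, 3.15 and 3.08 in t(1;14), and 6.07, 5.78 and 6.05 in oligospermic testis. No array of one group overlapped another group, with t(1;14) lowest and oligospermic highest. On that probe no t(1;14) array and 2 of 3 control arrays were well above background. With each t(1;14) array set at the lowest signal it detected, the fall was 1.91-fold, which is not a lower limit. The fitted log2 change was -1.34 ± 0.30 (adjusted p = 0.0061). That call was lost in 10 of the 14 alternatives and left-out arrays, among them the slide as a block (adjusted p = 0.0112) and normexp background correction, where the change was -0.28. Against the oligospermic arrays the t(1;14) signal, set in the same way, was 5.13-fold lower. The fit passed (adjusted p = 0.000127), a call that held with normexp although the change shrank to -0.74. The second, overlapping probe read 4.38, 5.76 and 4.86 in control, 3.92, 3.77 and 4.23 in t(1;14) and 6.57, 6.24 and 6.40 in oligospermic testis, again without overlap, and was above background on 2 of the t(1;14) arrays. Its change against control, -1.02 ± 0.32, did not pass (adjusted p = 0.0238). It shares most of its bases with the first and adds little as a separate reading.

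Of the 5 adaptors tested, 20% rose and none fell, beside 20.0% and 18.5% of all probes. The 1 that rose was MYD88, the adaptor of nearly all Toll-like receptors. It read 9.43, 9.15 and 9.31 in control and 10.16, 10.22 and 10.32 in t(1;14), a log2 change of 0.94 ± 0.11 (adjusted p = 0.000203), while the oligospermic arrays stood at 9.26 to 9.42. TRAF6, the ubiquitin ligase downstream of MYD88, read 9.22, 7.47 and 9.83 in control and 9.97 to 10.28 in t(1;14). The t(1;14) arrays lay above all controls, but control array 2 was far below the other two and the change of 1.25 ± 0.50 did not pass (adjusted p = 0.063). TRAF3, which leads towards IRF3, gave -0.37 ± 0.12 and did not pass (adjusted p = 0.0289).

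Of the 19 tested transcription factors and their partners, 7 rose, 2 fell and 10 did not pass. Those are 36.8% and 10.5%, beside 20.0% and 18.5% of all probes. STAT2, which carries the type I interferon signal to the nucleus, was among those that rose. It read 7.47, 7.07 and 7.64 in control and 8.46, 8.43 and 8.42 in t(1;14), which is 1.04 ± 0.16 (adjusted p = 0.000853). Of its 5 tested probes, 4 rose and all 5 were higher. STAT3, the IL-6 and IL-10 signal transducer, did not pass, with 0.30 ± 0.28 (adjusted p = 0.39).

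Both tested IkappaB inhibitors rose, 1 of them less firmly, beside subunits that did not pass. NFKBIA, the inhibitor IkappaB-alpha and itself an NF-kappaB target, read 11.45, 11.17 and 11.34 in control and 12.37, 12.65 and 12.45 in t(1;14). The log2 change was 1.17 ± 0.14 (adjusted p = 0.000209), and all 3 of its probes rose. NFKBIB, a second inhibitor of the family, rose by 0.50 ± 0.11 (adjusted p = 0.00436), the smallest of the rises, and lost that call in 8 of 15 alternatives and left-out arrays. The subunits NFKB1 and RELA gave 0.32 ± 0.20 (adjusted p = 0.22) and 0.00 ± 0.35 (adjusted p = 0.992). NFKBIL1, a gene of the MHC region named for its likeness to these inhibitors, fell by 0.61 on the log2 scale (adjusted p = 0.00174).

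Of the interferon regulatory factors themselves, IRF3 rose. IRF3, the factor first activated by viral sensing, read 9.90, 9.89 and 10.08 in control and 10.53, 10.69 and 10.56 in t(1;14), a change of 0.63 ± 0.12 (adjusted p = 0.00212). Its other probe gave 0.30 ± 0.14, with overlap between the groups, and did not pass (adjusted p = 0.107). IRF1 gave 0.54 ± 0.24 (adjusted p = 0.0897) and IRF7, the amplifier of interferon-alpha transcription, -0.51 ± 0.27 (adjusted p = 0.151). Both further rises of this class belong to genes that the symbol pattern caught but that are not IRFs. IRF2BP1, an IRF2-binding corepressor, rose by 0.87 ± 0.11 (adjusted p = 0.000329) and IRF2BPL, its relative, by 0.75 ± 0.12 (adjusted p = 0.00101).

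STAT4 went the other way from STAT2. It is the STAT through which IL-12 acts on lymphocytes, and it is also known from spermatids. The late STAT4 probe read 12.99, 13.23 and 12.90 in control, 10.64, 10.54 and 10.31 in t(1;14) and 13.20, 12.82 and 13.24 in oligospermic testis. Lowest without overlap were the t(1;14) arrays, by 5.85-fold (log2 change -2.55 ± 0.16, adjusted p = 8.21e-06), and the other groups overlapped. The early STAT4 probe gave 10.97, 11.23 and 10.84 against 8.65, 8.63 and 8.52, a change of -2.42 ± 0.14 (adjusted p = 6.12e-06), so the transcript read lower at both places. Of the 7 germ cell markers, the spermatid gene ACRV1 fell by 2.40, the sperm tail gene AKAP4 by 2.27, TNP2 by 1.09 and DDX4 by 0.91 on the same log2 scale. HORMAD1, of the meiotic chromosome axis, rose by 0.97, and the protamines PRM1 and PRM2, largely saturated, gave -0.01 and -0.32 without passing.

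**Figure D2:**
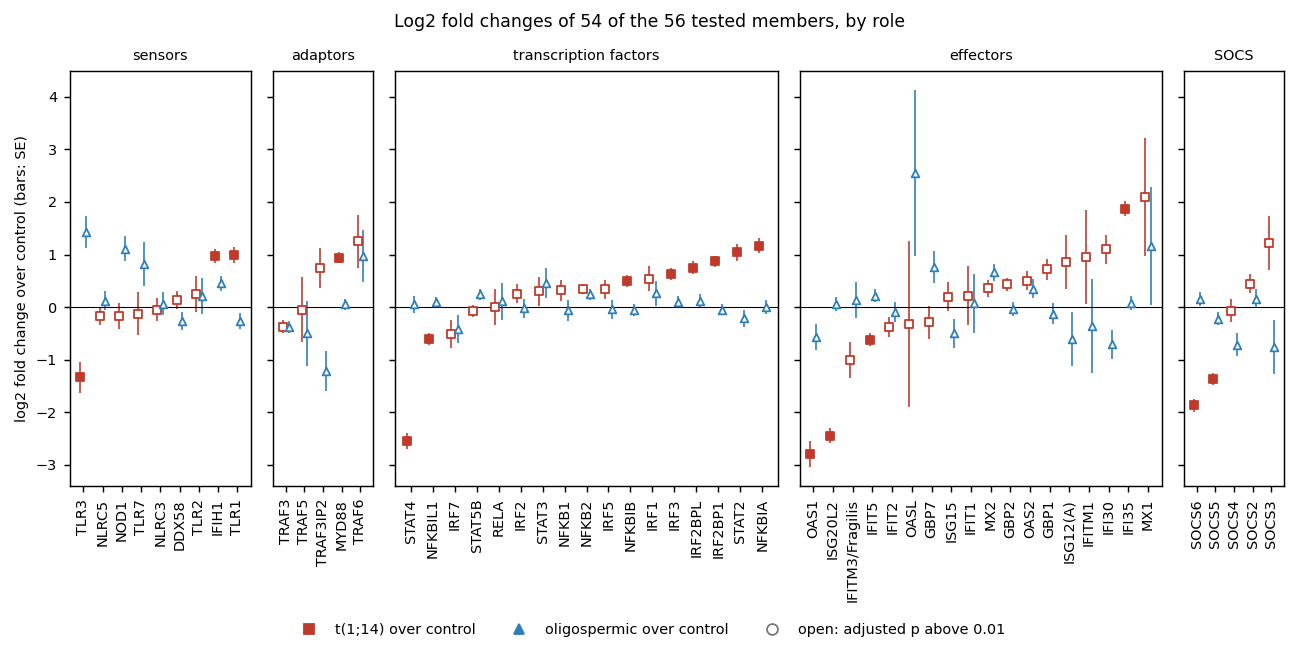
Log2 fold change over control with its standard error for 54 of the 56 tested members, by role; red squares are t(1;14) and blue triangles oligospermic, and filled marks have an adjusted p of at most 0.01. Filled red marks lie on both sides of 0 in 3 of the 5 classes, no blue mark is filled, and the widest bars belong to MX1 and OASL.

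Among the 18 tested effectors, 3 fell and 1 rose in t(1;14), 16.7% and 5.56% beside 18.5% and 20.0% of all probes. OAS1, which makes the 2-5A that activates RNase L, fell most of all members. Its main probe read 11.16, 12.14 and 12.16 in control, 9.09, 8.92 and 9.06 in t(1;14) and 11.36, 11.15 and 11.24 in oligospermic testis. Again the t(1;14) arrays were lowest without overlap, by 6.95-fold (log2 change -2.80 ± 0.25, adjusted p = 4.32e-05). The printed OAS1 probe from base 871 gave a change of -1.44 ± 0.29 (adjusted p = 0.00325), whereas the fit of the probe from base 676 did not pass (adjusted p = 0.0174) and that probe was above background on no t(1;14) array. On the main probe the fall was 2.24, 3.08 and 3.07 on the log2 scale within the separate slides. Its relative OAS2 gave 0.50 ± 0.18 in the opposite direction without passing (adjusted p = 0.0387).

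ISG20L2 carries an interferon name by its likeness to ISG20 but is a nucleolar exonuclease of ribosome assembly. It read 12.58, 13.06 and 12.73 in control, 10.38, 10.32 and 10.32 in t(1;14) and 12.77 to 12.96 in oligospermic testis, a 5.47-fold fall in t(1;14) (log2 change -2.45 ± 0.14, adjusted p = 5.75e-06). IFIT5, an RNA-binding member of the IFIT family, fell by 0.62 (adjusted p = 0.0035), a call lost in 5 of 15 alternatives and left-out arrays. The 1 effector that rose was IFI35, a STAT-induced leucine zipper protein. It read 8.19, 8.28 and 8.55 in control and 10.16, 10.33 and 10.16 in t(1;14), 1.87 ± 0.14 on the log2 scale (adjusted p = 1.81e-05), the largest rise of the members. IFI30, a lysosomal thiol reductase, lay just outside the threshold, at 7.46, 6.81 and 8.05 against 8.62, 8.46 and 8.54 (1.1 ± 0.28, adjusted p = 0.0104), and passed in 6 of 15 alternatives and left-out arrays.

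Several interferon-induced genes, MX1, MX2, ISG12(A), ISG15, IFIT1 and IFIT2, did not pass in t(1;14) against control, and each had its largest SD over the control arrays. MX1, the dynamin-like GTPase that blocks virus replication, read 7.97, 3.96 and 9.28 in control, 9.22, 9.29 and 8.96 in t(1;14) and 8.5, 8.22 and 7.97 in oligospermic testis. Control array 2 was the lone low array and control array 3 stood level with t(1;14), so the log2 change of 2.09 ± 1.12 did not pass (adjusted p = 0.147). Without control array 2 it was 0.53 (adjusted p = 0.257). A further MX1 probe read 6.86, 3.10 and 8.52 in control, and another 5.82, 4.72 and 7.28, in the same order. ISG12(A), of the IFI27 family, read 11.41, 10.71 and 13.14 in control and 12.57 to 12.66 in t(1;14), and IFIT1, which binds viral RNA caps, read 4.49, 3.76 and 6.29 against 4.94 to 5.29. ISG15, the ubiquitin-like modifier, read 8.42, 7.69 and 8.90 against 8.44 to 8.64, a change of 0.20 ± 0.28 (adjusted p = 0.559). IFIT2 and MX2, further antiviral effectors, gave -0.38 ± 0.19 (adjusted p = 0.127) and 0.36 ± 0.16 (adjusted p = 0.0885), and IFIT3 was not tested.

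These single genes shared an order among the control arrays. Of the 18 effectors, 14 were highest on control array 3 and none lowest there, and 11 were lowest on control array 2. Over all tested probes, control array 3 was highest for 11265 of 41105 and control array 2 lowest for 15211. The median SD of an effector was 0.47 over the control arrays, 0.11 over the t(1;14) arrays and 0.20 over the oligospermic arrays, beside 0.24, 0.13 and 0.18 for all tested probes. The t(1;14) arrays held 1 animal and the control arrays came from a set of boars, so differences between boars and between arrays cannot be told apart in the wider control spread. The summed leukocyte markers followed the same order, at 1054, 832 and 1196 on control arrays 1, 2 and 3, and their part in it was not tested. Without control array 3, ISG12(A), SOCS3, IFI30 and GBP1 passed as well, at 1.56 (adjusted p = 0.000879), 1.85 (adjusted p = 0.00304), 1.41 (adjusted p = 0.00159) and 0.89 (adjusted p = 0.00588), while TLR3 and IFIT5 no longer did. The fit for IFITM1 passed too (adjusted p = 0.00248), but both control arrays then left were below background for it. IFITM1 entered the test only through t(1;14), where it was high, so no size is given and it is not read as a rise.

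**Figure D3:**
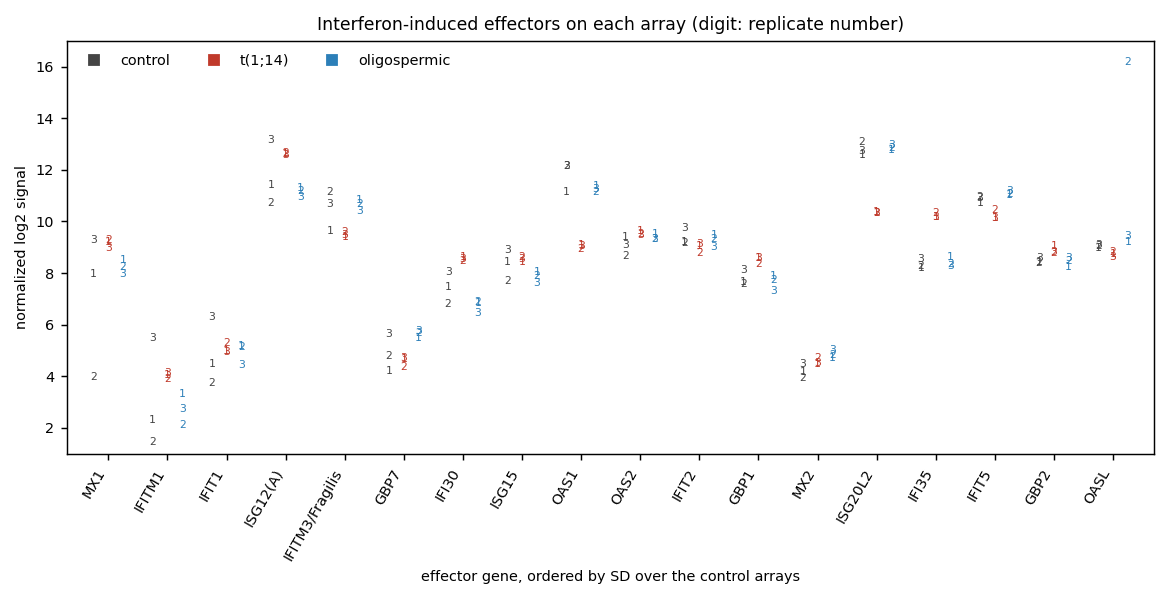
Normalized log2 signal (vertical axis) of the 18 tested effectors on each array, ordered along the horizontal axis by their SD over the control arrays; the digit is the replicate number and the colour the group. Control array 3 lies highest and control array 2 or 1 lowest for most genes on the left, MX1 falls to 3.96 on control array 2, and OASL stands at 16.2 on oligospermic array 2 alone.

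Of the 5 SOCS genes, 2 fell in t(1;14) and none rose, where 18.5% of all probes fell and 20.0% rose. SOCS6, which targets receptor tyrosine kinase signalling for degradation, read 9.12, 9.50 and 9.52 in control, 7.46, 7.54 and 7.51 in t(1;14) and 9.50, 9.41 and 9.66 in oligospermic testis. The fall was 3.66-fold, without overlap (log2 change -1.87 ± 0.13, adjusted p = 1.48e-05), and 5.01-fold on its other probe. SOCS5, an inhibitor of IL-4 and EGF signalling, read 8.96, 9.17 and 9.02 against 7.74, 7.70 and 7.60, a change of -1.37 ± 0.12 (adjusted p = 4.96e-05), and fell by 2.03 on its other probe. SOCS3, the interferon- and cytokine-induced inhibitor of JAK kinases, read 4.02, 3.44 and 5.64 in control and 5.52, 5.54 and 5.68 in t(1;14), which did not pass (1.22 ± 0.52, adjusted p = 0.0788). SOCS2, the inhibitor of growth hormone signalling, gave 0.44 ± 0.18 (adjusted p = 0.0625).

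Pathway genes outside the symbol pattern were read from a list of 78, of which 47 had a probe and 41 were tested. In t(1;14), 10 rose and 5 fell, 24.4% and 12.2% of those tested, beside 20.0% and 18.5% of all probes. With the slide as a block, 12 rose and 5 fell, where 9564 and 8215 of 41105 probes did. The 2 differential genes were both higher, where 1.41% of all probes were differential and higher and 4.41% differential and lower. TNFAIP3, the A20 enzyme that shuts off NF-kappaB, read 3.97, 3.57 and 3.37 in control and 5.46, 5.95 and 5.64 in t(1;14), a fitted log2 change of 2.05 ± 0.28 (adjusted p = 0.000428). It was above background on 1 of 3 control arrays, on all 3 of t(1;14) and on no oligospermic array. TNFAIP3 thus passed the filter only through the group where it was high. The size of its rise is uncertain and its p-value is not support for a rise. LY96, the MD-2 part of the endotoxin receptor, rose by 2.03 ± 0.21 (adjusted p = 1e-04), and CD14, its co-receptor, by 1.3 ± 0.23 (adjusted p = 0.00185). CD14 is also 1 of the leukocyte markers above. TICAM2, an adaptor of TLR4, went the other way, at 7.23, 7.27 and 7.89 in control and 5.82, 6.44 and 6.36 in t(1;14), a change of -1.26 ± 0.23 without overlap (adjusted p = 0.00225). PIAS2, of a family of STAT inhibitors, fell by 0.69 on the log2 scale (adjusted p = 0.00308).

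Of 12 genes of signalling kinases and partner proteins such as TAB1 and TAB2, 3 rose and 2 fell. That is 25% and 16.7%, near the 20.0% and 18.5% of all probes. IRAK4, the kinase bound to MYD88, rose by 1.35 ± 0.23 (adjusted p = 0.00155), TAB1 by 1.04 ± 0.15 (adjusted p = 0.000587) and TBK1, the kinase of IRF3, by 0.68 ± 0.12 (adjusted p = 0.00146). CHUK, a kinase of IkappaB, fell by 0.95 (adjusted p = 0.00238) and TAB2 by 0.60 (adjusted p = 0.00158). Of the 8 interferon receptor and JAK genes, 25% rose and none fell, beside the same 20.0% and 18.5%. JAK2 rose by 0.92 ± 0.16 (adjusted p = 0.00193) and IL10RB, a chain of the interferon-lambda receptor, by 0.52 ± 0.13 (adjusted p = 0.00965). Among 11 further interferon-induced genes, 18.2% rose and 9.09% fell, again beside 20.0% and 18.5% of all probes. CXCL9 and PARP12 rose. CMPK2, a mitochondrial nucleotide kinase next to RSAD2 in many genomes, fell by 1.74 (adjusted p = 5.08e-05). None of the 4 interferon genes with a probe passed the filter.

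**Figure D4:**
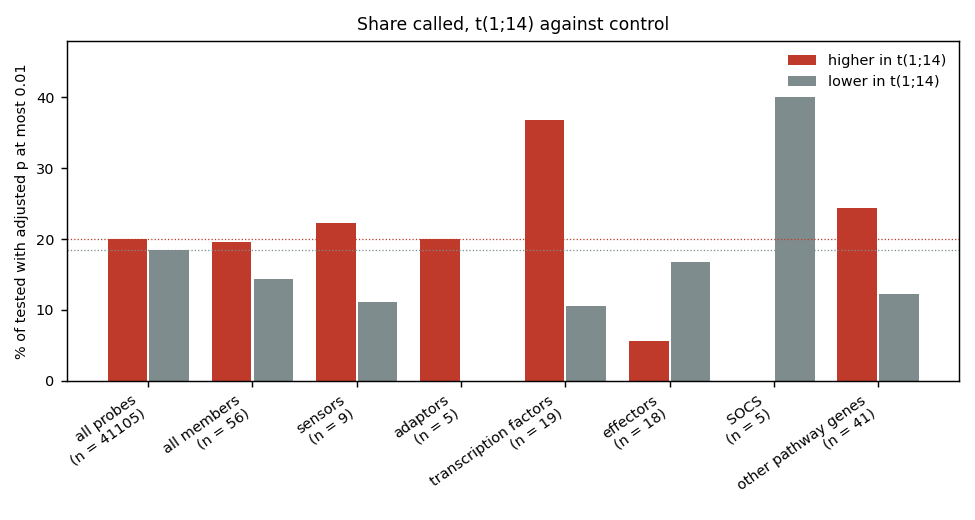
Share of tested genes or probes, in percent, with an adjusted p of at most 0.01 in t(1;14) against control; red bars are higher and grey bars lower in t(1;14), and the dotted lines mark all 41105 probes. The members together stand at 19.6% and 14.3% beside 20.0% and 18.5%, while the classes, of 5 to 19 genes each, scatter to both sides.

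Neither a rise nor a fall passed for any member in oligospermic against control, where 0.127% and 0.0973% of all probes rose and fell. Of the 56 tested members, 11 had an unadjusted p under 0.05, a larger share than the 13.0% of all probes. The median log2 fold change of the members was 0.06. The groups did not overlap for 8 of the 56 that were higher, a larger share than the 7.87% of all probes. They did not overlap for 2 that were lower, a smaller share than the 7.66% of all probes. NOD1, the cytosolic sensor of bacterial peptidoglycan, was among the higher ones, at 4.50, 3.90 and 3.99 in control and 5.55, 4.96 and 5.21 in oligospermic testis (1.11 ± 0.24, adjusted p = 0.0784). TLR3 differed by 1.43 ± 0.30 (adjusted p = 0.0792), and passed without control array 2 (1.82, adjusted p = 0.00273). OASL, an OAS-like protein that boosts RIG-I, read 9.22, 16.16 and 9.43 in oligospermic testis and 8.61 to 9.10 on the other arrays. The high value was a saturated spot on 1 array and OASL had no other tested probe, and without that array the change was 0.28 (adjusted p = 0.563). For t(1;14) against oligospermic, leaving it out took OASL from -2.88 to -0.60, which passed (adjusted p = 0.00694).

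Between the 2 kinds of affected testis, 13 members rose and 9 fell in t(1;14) against oligospermic. These are 23.2% and 16.1% of the 56, beside 22.8% and 19.9% of all probes. Leaving out 1 array took the 13 rises to as few as 8, as given at the end. This comparison shares its t(1;14) arrays with the first, so its calls are not separate evidence. Arrays of t(1;14) lay above the oligospermic arrays for 25 of the 56 members and below them for 15, against 40.2% and 30.1% of all probes. The 5 differential members were all lower in t(1;14), where 4.69% of all probes were differential and lower. They were OAS1 (-2.23), STAT4 (-2.59), ISG20L2 (-2.51), SOCS6 (-2.02) and TLR3 (5.13-fold, set as above).

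Genes called here and not against control were few. TRAF3IP2, an adaptor of the IL-17 receptor, read 6.81, 6.42 and 6.17 in oligospermic testis and 8.18, 8.59 and 8.53 in t(1;14), 1.96 ± 0.38 on the log2 scale (adjusted p = 0.0027), a call lost in 4 of 15 alternatives and left-out arrays. The control arrays, at 8.60, 6.91 and 7.57, spanned the gap. IFI30 rose by 1.82 ± 0.28 (adjusted p = 0.000784). NOD1 fell by 1.28 (adjusted p = 0.002). IFIH1, called against control, gave 0.52 ± 0.14 here and did not pass (adjusted p = 0.0128). GBP1, an interferon-gamma-induced GTPase, read 7.89, 7.75 and 7.30 against 8.57, 8.36 and 8.57 (0.85 ± 0.20, adjusted p = 0.00608), a call lost in 9 of 15 alternatives and left-out arrays, the slide as a block among them (adjusted p = 0.0139). With the slide as a block GBP2 passed in both comparisons of t(1;14), at 0.43 (adjusted p = 0.00678) against control and 0.47 (adjusted p = 0.00441) against oligospermic, and GBP7 passed at -1.05 (adjusted p = 0.00844) against oligospermic. In this comparison 4 of 9 leukocyte markers rose, CD163, CD14, FCER1G and TYROBP, and 1 fell, C1QC at -1.79. Over all probes 22.8% rose and 19.9% fell.

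A few members were read in some groups alone. TLR7, the X-linked receptor for single-stranded RNA, was above background on 3 oligospermic arrays, 1 control array and no t(1;14) array, at 4.96, 4.82 and 4.54, then 3.59, 3.28 and 4.99, then 3.50, 4.27 and 3.71. TLR7 entered the test through the oligospermic group alone. The fitted signal there was 1.93-fold that of t(1;14) and did not pass (adjusted p = 0.0791). As t(1;14) was below background, the size is uncertain. IFITM1, a membrane protein that blocks virus entry, was above background on 2 t(1;14) arrays, 1 control array and no oligospermic array.

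By the RefSeq table of Sscrofa11.1, 71 of the 73 members had an entry, used here for names and chromosomes. Of the chromosomes of the translocation, 14 held 8 members, IFIT1, IFIT2, IFIT3, IFIT5, NFKB2, OAS1, OAS2 and OASL. Among the 7 of them tested, OAS1 and IFIT5 fell and none rose, where 18.5% and 20.0% of all probes did, too few genes to set chromosome 14 apart. Chromosome 1 held SOCS4, SOCS6, TRAF3IP2, TLR4 and ISG20, of which 3 were tested and SOCS6 fell. Chromosome 15, outside the translocation, held STAT4 and TLR3 among the falls and IFIH1 among the rises.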

How the data were processed

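Total RNA of testis was labelled with cyanine 3 and hybridized to a custom 60K porcine Agilent array. The scanner files deposited by the authors hold intensity values from Feature Extraction 11.5.1.1, and the value table deposited by the authors holds log2 values, quantile normalized for 38759 probes per the study's methods. Those methods, and the submitters' processing notes, name limma. Those methods align the probes to the Sscrofa10.2 assembly with Blat, and no such coordinates were used here.

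Here the processed signal was log2 transformed and quantile normalized over 9 arrays in R 4.3.3 with limma 3.58.1. Probes entered the test where any group had 2 or more of its 3 arrays flagged as well above background and not as outliers. The 3 groups were fitted in 1 model with 3 contrasts, and p-values were Benjamini-Hochberg adjusted over all tested probes, with the study's thresholds of 0.01 and a log2 change of 2. A fold written as at least a value sets a group below background at its lowest detected signal. The scripts were tested on simulated data.

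Genes named are those differential in any comparison, the 10 largest rises and falls of each comparison among those called without overlap, 37 landmark genes (33 on the array), members above background in some groups alone and the largest changes of the pathway and marker lists. OASL, ISG12(A), GBP2 and GBP7 were chosen after their values were seen. The members and lists were chosen with earlier results of these data known. Each slide held 1 array of each group. Deviations from the group means correlated for arrays of the same slide, by 0.339, 0.109 and 0.119 for t(1;14) against control, 0.478, 0.136 and 0.101 for oligospermic against control and 0.489, 0.292 and 0.33 for t(1;14) against oligospermic, so slides paired the arrays. Replicate numbers of t(1;14) did not. The precision is limited by the number of arrays. Of the tested members, 2 are counted but not reported by name here. Promoter motifs and protein sequences were not analysed here.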

Additional observations from a re-analysis of the deposited data

How the results depend on the processing

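Of the 19 members called in t(1;14) against control, 16 kept their call under every alternative and left-out array in which they were tested, the exceptions being TLR3, IFIT5 and NFKBIB, whose adjusted p reached at most 0.0594, 0.0171 and 0.0184. Of the 22 called in t(1;14) against oligospermic, 17 did, the exceptions being GBP1, IRF3, IRF2BPL, NFKBIB and TRAF3IP2. No called change turned its direction. Counting every tested probe in place of 1 a gene gave 18 rises, 14 falls and 6 differential probes against control, and 22, 15 and 9 against oligospermic, more probes being counted. A fold threshold of 1 gave 10 and 14 differential members. Fitting the 6 arrays of t(1;14) against oligospermic alone gave 21 member rises and 8 pathway falls, where 11005 of 40567 probes rose and 8929 fell. Normexp gave 3 differential members in that comparison. The cause was not tested. With normexp the members' median change against control was 0.08 and that of all probes 0.06, where the values reported are 0.31 and 0.135, and without the filter all probes gave 0.03.

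Leaving out single arrays gave, against control, 10 to 16 rises, 6 to 9 falls, 3 to 4 differential members, a median of 0.20 to 0.43, and 8 to 10 pathway rises and 3 to 6 falls. Over all probes it gave 4740 to 8836 rises and 5910 to 7369 falls. The 16 rises, IFITM1 among them, came with 6 falls without control array 3. There 6730 of 40707 probes rose and 7007 fell, so a larger share of members than of probes rose. For t(1;14) against oligospermic it gave 8 to 13 rises, 9 to 10 falls, 4 to 6 differential members, a median of 0.19 to 0.30, and 8 to 13 pathway rises and 4 falls. All probes there gave 5935 to 8372 rises and 6294 to 7278 falls. The 8 member rises came without t(1;14) array 2 or without oligospermic array 3, and the 3 pathway falls without t(1;14) array 3. For oligospermic against control it gave 0 to 1 rises, TLR3 without control array 2, no falls and a median of -0.07 to 0.08.

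With the slide as a block, 12 members rose and 7 fell against control, and 13 and 10 against oligospermic. Of all 41105 probes, 9564 rose and 8215 fell against control with that block, and 10806 and 9144 against oligospermic. With the replicate block, 10 members rose and 7 fell against control, 11 and 9 against oligospermic, and none in oligospermic against control. Of all probes, 6228 rose and 6595 fell against control with that block, and 7583 and 7197 against oligospermic. Signals near background, TLR3 and TLR7 among them, limit what can be read from these arrays.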
